A study of Mus musculus with 16 samples.

Results

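The choroid plexus genes are 34 genes known for their expression in the choroid plexus, and their array probes were followed in whole-brain RNA of mice with and without the transporter Slc5a8. Members were found by the gene name that the scanner files give to non-control probes. All 34 were found and all 34 passed the filter on dim probes, among 23032 genes tested. They had 52 probes, of which 49 were kept and 47 were well above background on all 16 arrays. For 33 members the probe that stood for the gene was above background on all 16 arrays, and the Cldn1 probe was above it on 14, falling short on 18-month wild-type array 3 and 4-month deficient array 1.

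The 4 groups were Slc5a8-deficient brains at 18 months, wild-type brains at 18 months, Slc5a8-deficient brains at 4 months and wild-type brains at 4 months, with 4 arrays each. All animals were male, and the labels give C57BL/6J for every sample. The sources used here state neither the allele behind the deficiency nor how the brains were dissected, and whether ventricles were rinsed or bordering tissue was kept is not given. RNA was labelled with Cy3 and hybridised to 1-colour Agilent arrays, and a level is the log2 of a probe's processed signal less that of its array's 75th percentile. SLC5A8 is a sodium-coupled carrier of lactate, pyruvate and ketone bodies. Its own probe, printed as 10 spots, was dim throughout, well above background on 0 of 16 arrays, and so could not check the genotype labels.

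The choroid plexus is a fringe of epithelium and vessels that hangs into the brain ventricles and secretes cerebrospinal fluid. Its epithelial cells move ions and water with pumps, channels and exchangers, seal the blood side from the fluid side with claudins, and release carrier proteins such as transthyretin into the fluid. It is a small tissue, and RNA of a whole brain holds its transcripts in proportion to how much of it was taken. In such RNA, fewer epithelial cells and less RNA per cell cannot be told apart.

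The 34 genes varied widely between brains of the same group. The choroid plexus level of an array is the median over the 34 genes of each gene's log2 level minus its mean over the 16 arrays. It was -0.31, -0.77, -0.12 and 0.11 on the 18-month deficient arrays, and -0.27, -0.47, -0.03 and 0.27 on the 18-month wild-type arrays. It was -0.09, -0.05, 0.06 and -0.34 on the 4-month deficient arrays, and 1.39, -0.26, 0.41 and 0.39 on the 4-month wild-type arrays. One brain stood far above all others, 4-month wild-type array 1, and it was the highest of the 16 arrays for 31 of 34 genes. The lowest was 18-month deficient array 2, which held the lowest value for 21 of 34 genes.

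**Figure D1:**
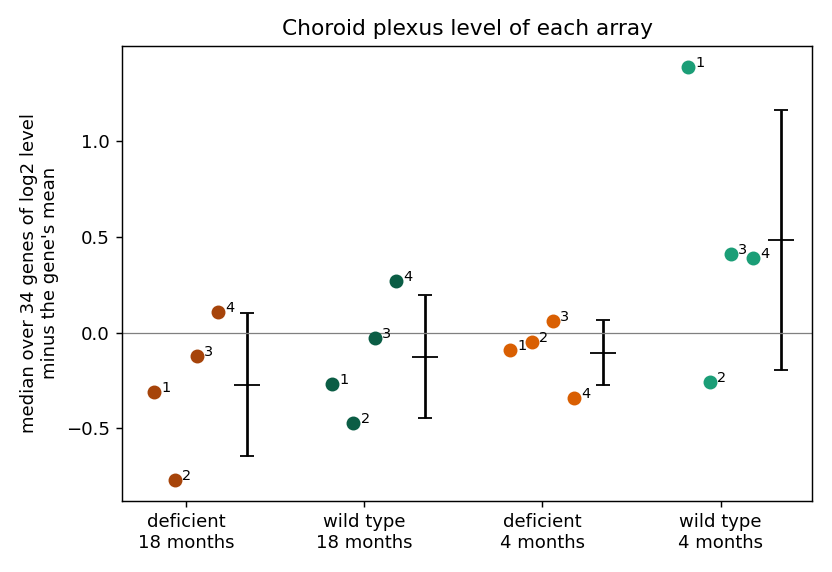
Choroid plexus level of each array, the median over 34 genes of the log2 level minus the gene's mean over 16 arrays, with the array number beside each point and the mean and SD of the 4 arrays as a bar. Array 1 of the 4-month wild-type brains lies at 1.39, while the other 15 arrays lie between -0.77 and 0.41.

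The group means were -0.27 ± 0.37 in 18-month deficient and -0.13 ± 0.32 in 18-month wild-type brains, and -0.11 ± 0.17 in 4-month deficient and 0.48 ± 0.68 in 4-month wild-type brains (SD, n = 4 each). The ranges of deficient and wild-type arrays overlapped at both ages. The SD within groups, pooled, was 0.43. Each slide held 8 arrays of a single genotype, and an effect of the slide cannot be told apart from one of genotype.

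The genes moved together. Over the 561 pairs of members, the correlation of their deviations from group means had a median of 0.76 (16 arrays that share each sample's RNA and normalization) and ran from -0.27 to 0.99. Of the pairs, 98% were above 0. For 17 members the correlation with the median of the other members was 0.9 or more, and the median over members was 0.89. Leaving out the arrays with the highest and the lowest level, 4-month wild-type array 1 and 18-month deficient array 2, that median was 0.76, and only Kl and Enpp2, 2 members, still reached 0.9. Over pairs, the median without those arrays was 0.59.

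**Figure D2:**
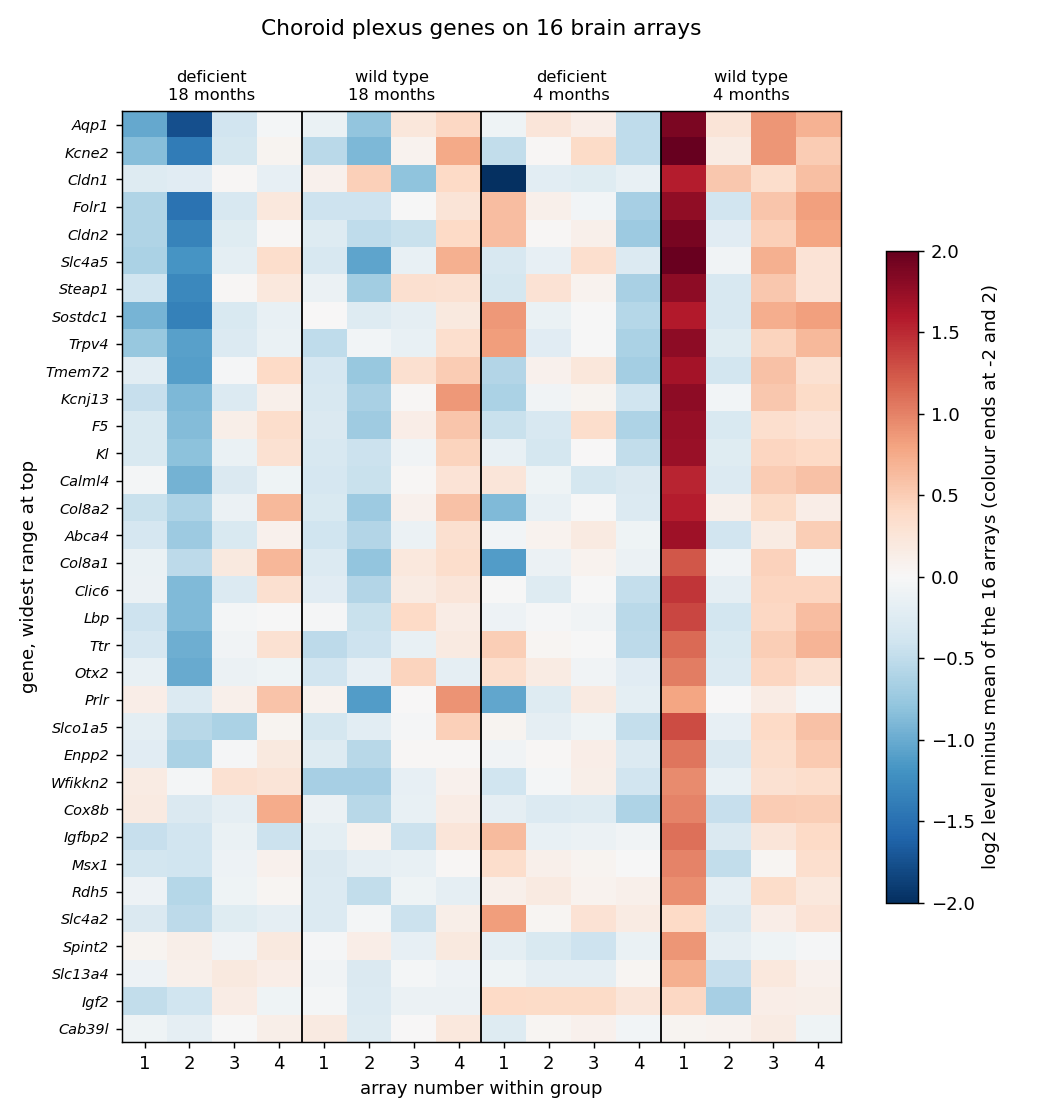
Log2 level of each of the 34 genes on each array minus the gene's mean over 16 arrays, with genes in rows from the widest range to the narrowest and arrays in columns by group. The column of 4-month wild-type array 1 is red for nearly every gene, and that of 18-month deficient array 2 is blue for most genes, most of all for Aqp1.

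The width of the swing differed between members. The range over 16 arrays was widest for Aqp1, the water channel of the epithelium's fluid-facing membrane, at 3.64 on the log2 scale or 12.5-fold. It was 3.61 for Kcne2, a potassium channel subunit, and 3.25 for Folr1, the receptor that carries folate across the epithelium. At the narrow end, the range was 0.47 for Cab39l, 1.08 for Igf2, 1.17 for the sulfate carrier Slc13a4, 1.29 for Spint2 and 1.36 for the anion exchanger Slc4a2.

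Members differed in how closely they followed the others. Kl, the anti-aging hormone and co-receptor klotho, correlated at 0.98 with the median of the others, the chloride channel protein Clic6 at 0.97, and Enpp2, the enzyme autotaxin, at 0.97. The correlation was 0.41 for Cab39l, 0.48 for Cldn1, 0.5 for Slc4a2, 0.51 for Igf2, 0.56 for Spint2, 0.57 for the prolactin receptor Prlr and 0.67 for Slc13a4. Cab39l, Slc4a2 and Spint2 are also known from many other cells, and Igf2 and Slc13a4 from the meninges. The correlations are descriptions over 16 arrays, and no test was run on them. Whether expression in other cells bears on them was not tested.

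Among the secreted proteins, Ttr encodes transthyretin, which carries thyroid hormone and the retinol-binding protein, and is the best-known marker of the tissue. Its log2 level was 6.26, 5.61, 6.52 and 6.9 in 18-month deficient brains, against 6.07, 6.18, 6.45 and 6.78 in 18-month wild-type brains. It was 7.08, 6.64, 6.58 and 6.07 in 4-month deficient brains, against 7.72, 6.29, 7.09 and 7.27 in 4-month wild-type brains. The groups overlapped at both ages. The difference, deficient minus wild type, was -0.05 ± 0.31 at 18 months and -0.5 ± 0.31 at 4 months (SE, n = 4 each), with adjusted p of 0.987 and 0.425.

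Sostdc1 encodes a secreted inhibitor of BMP and Wnt signalling. It was at -1.28, -1.71, -0.66 and -0.5 in 18-month deficient brains, against -0.34, -0.62, -0.53 and -0.16 in 18-month wild-type brains. Both lowest values lay in deficient brains 1 and 2, and the groups overlapped. The difference was -0.63 ± 0.37 (adjusted p = 0.682). At 4 months it was 0.51, -0.48, -0.37 and -0.93 in deficient brains, against 1.23, -0.67, 0.37 and 0.47 in wild-type brains, a difference of -0.67 ± 0.37 (adjusted p = 0.371).

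Wfikkn2, a secreted protein that binds myostatin and GDF11, was the member with the smallest p between genotypes at 18 months, and it was higher in the deficient brains. Its level was -1.33, -1.52, -1.18 and -1.23 in 18-month deficient brains, against -2.16, -2.16, -1.66 and -1.41 in 18-month wild-type brains. Only wild-type array 4 reached into the range of the deficient arrays. The difference was 0.53 ± 0.22, or 1.45-fold, and did not pass the test (adjusted p = 0.379). At 4 months the difference ran the other way, at -0.54 ± 0.22 (adjusted p = 0.22), from -1.89, -1.52, -1.37 and -1.87 in deficient brains against -0.55, -1.64, -1.19 and -1.13 in wild-type brains. The change of the genotype difference between the ages, tested as an interaction, had an adjusted p of 0.24.

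With the array's choroid plexus level as a covariate in the fit across all genes, Wfikkn2 passed the test at 18 months, at 0.63 ± 0.12 (adjusted p = 0.0153). It was the only member called in that fit, in which 1.19% of the 23032 genes were called. The covariate is built from the members, Wfikkn2 included. The 3 kept probes of Wfikkn2 did not behave alike. The probes at bases 3322 and 2816 of the transcript were well above background on all 16 arrays, and the dimmer one at base 1686 on 14. The 18-month difference was 0.53 for the probe at base 3322, which stands for the gene, 0.25 for the one at base 2816 and -0.02 for the one at base 1686. Over 16 arrays the last of these correlated at -0.49 and -0.55 with the other 2, which correlated with each other at 0.72.

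The remaining members grouped with the secreted proteins were Enpp2, Igf2, Igfbp2, Lbp, F5, Kl and Spint2, the last a membrane protein. Of all 10 in this role, 7 were lower in deficient brains at 18 months, with a median difference of -0.08, and 9 at 4 months, with a median of -0.52. The exception at 4 months was Igf2, the growth factor of the fluid and the meninges, at 0.35 ± 0.19 (adjusted p = 0.352). Igf2 was at -2.66, -2.68, -2.68 and -2.82 in 4-month deficient brains, against -2.65, -3.72, -2.93 and -2.95 in 4-month wild-type brains. Here 4-month wild-type array 2 was the low one and array 1 did not exceed the deficient brains by more than 0.01.

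Of the receptors, Folr1 was at 0.81, -0.06, 1.09 and 1.63 in 18-month deficient brains, against 0.99, 0.99, 1.41 and 1.67 in 18-month wild-type brains. It was at 2.03, 1.51, 1.35 and 0.75 in 4-month deficient brains, against 3.19, 1.03, 1.97 and 2.23 in 4-month wild-type brains. The groups overlapped at both ages, and the differences were -0.4 ± 0.42 and -0.7 ± 0.42 (adjusted p = 0.894 and 0.405). A second Folr1 probe, correlated at 0.95 with the first over 16 arrays, gave -0.07 and -0.64 for the same differences. Prlr differed by 0.17 at 18 months and by -0.56 at 4 months, with adjusted p of 0.959 and 0.438.

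Channels and transporters made up the largest role, with 11 members. Of these, 10 were lower in deficient brains at 18 months (median -0.3) and 10 at 4 months (median -0.72). Aqp1 was at -1.86, -2.6, -1.22 and -0.88 in 18-month deficient brains, against -0.97, -1.63, -0.62 and -0.42 in 18-month wild-type brains. It was at -0.93, -0.6, -0.71 and -1.35 in 4-month deficient brains, against 1.04, -0.59, 0.04 and -0.14 in 4-month wild-type brains. At 4 months every deficient brain lay below every wild-type brain, the nearest pair by 0.01, and at 18 months the groups overlapped. The differences were -0.73 ± 0.39 at 18 months (adjusted p = 0.592) and -0.98 ± 0.39 at 4 months (adjusted p = 0.21). Without 4-month wild-type array 1, the 4-month difference of Aqp1 was -0.66.

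Trpv4, a cation channel that responds to osmotic swelling, was at -0.66, -0.99, -0.19 and -0.05 in 18-month deficient brains, against -0.41, 0.04, -0.06 and 0.43 in 18-month wild-type brains. The difference was -0.47 ± 0.38 (adjusted p = 0.826). Slco1a5, an organic anion carrier, was at -3.88, -4.11, -4.02 and -4.41 in 4-month deficient brains, against -2.63, -4.09, -3.53 and -3.35 in 4-month wild-type brains. Wild-type array 2 was as low as the deficient brains, and the difference was -0.71 ± 0.26 (adjusted p = 0.186). Without 4-month wild-type array 1 it was -0.45.

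Slc4a2, the basolateral chloride and bicarbonate exchanger, was the 1 transporter not lower in deficient brains at 4 months, at 0.2 ± 0.18 (adjusted p = 0.594). At 18 months it differed by -0.15, and there the exception was Slc13a4, at 0.21 ± 0.18 (adjusted p = 0.836). Slc4a2 was at 1.05, 0.82, 1.09 and 1.16 in 18-month deficient brains, against 2.18, 1.38, 1.62 and 1.5 in 4-month deficient brains. All 4 older brains lay below all 4 younger ones. The difference, old minus young, was -0.64 ± 0.18, or 0.641-fold, and had the smallest p of any member in that comparison (adjusted p = 0.0773). In wild-type brains it was 1.07, 1.3, 0.9 and 1.46 at 18 months and 1.74, 1.04, 1.47 and 1.61 at 4 months, a difference of -0.29 ± 0.18 (adjusted p = 1).

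Both transcription factors were lower in deficient brains at both ages by small amounts. Otx2, the homeodomain factor on which the choroid plexus depends for its formation and upkeep, was at 1.18, 0.31, 1.2 and 1.23 in 18-month deficient brains, against 0.94, 1.16, 1.77 and 1.14 in 18-month wild-type brains. It was at 1.66, 1.48, 1.25 and 1.09 in 4-month deficient brains, against 2.34, 1.05, 1.75 and 1.62 in 4-month wild-type brains. The groups overlapped at both ages, with differences of -0.27 ± 0.27 and -0.32 ± 0.27 (adjusted p = 0.887 and 0.559). A second Otx2 probe, placed at base 185 of another transcript, gave 0.17 and 0.74 for the same differences and correlated with the first at 0.27 over 16 arrays. The direction for Otx2 therefore depended on the probe. Msx1, the other factor, differed by -0.04 and -0.09.

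Otx2 and related homeodomain proteins bind the letters TAATCC, and the genes moved together, so the members' promoters were searched for those letters on both strands. RefSeq windows of 250 bases before to 50 after the start (GRCm38.p6) were at hand for 28 of 34 members, in 41 windows. TAATCC or its complement GGATTA stood in 3 of the 41 member windows, or 7.32%, against 7.06% of all 32851 windows. These windows belonged to Otx2, Igf2 and Abca4, a flippase of the retinoid cycle. For the 2 in which it stood before the start site, 80 bases are shown on the gene's own strand with GGATTA in capitals, Abca4 having been chosen after its match was seen.
Otx2 (chr14:48665278-48665357, minus strand): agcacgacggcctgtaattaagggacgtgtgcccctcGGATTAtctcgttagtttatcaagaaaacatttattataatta
Abca4 (chr3:122044365-122044444, plus strand): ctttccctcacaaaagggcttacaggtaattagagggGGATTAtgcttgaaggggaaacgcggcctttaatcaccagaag
The match lay 211 bases before the start in Otx2 and 58 before it in Abca4. A match is a run of letters, and none of these windows was tested for binding. Abca4 correlated at 0.96 with the median of the other members, Otx2 at 0.83 and Igf2 at 0.51.

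The junction and matrix genes held the member with the smallest p at 4 months. Cldn1 encodes a tight junction claudin. It was at -7.18, -5.38, -5.41 and -5.31 in 4-month deficient brains, against -3.6, -4.63, -4.82 and -4.56 in 4-month wild-type brains. All 4 deficient brains lay below all 4 wild-type brains, and deficient array 1, where the probe was not well above background, was far below the rest. The difference was -1.42 ± 0.39, or 0.374-fold, and did not pass the test (adjusted p = 0.0849). It was -0.96 without 4-month deficient array 1 and -1.15 without 4-month wild-type array 1. At 18 months it was at -5.42, -5.4, -5.14 and -5.33 in deficient brains, against -5.08, -4.7, -5.98 and -4.77 in wild-type brains, a difference of -0.19 ± 0.39 (adjusted p = 0.959). The probe was not well above background on that wild-type array 3, the one at -5.98. Without it the difference was -0.47 ± 0.39 (adjusted p = 0.687), and the 4 deficient brains lay below the remaining wild-type brains.

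Cldn2, the claudin that makes the epithelium's junctions leaky to cations, differed by -0.34 at 18 months and -0.73 at 4 months (adjusted p = 0.915 and 0.373). Of the matrix collagens, Col8a2 was at -2.05, -1.32, -1.18 and -1.45 in 4-month deficient brains, against 0.4, -1.06, -0.78 and -1.03 in 4-month wild-type brains. These groups did not overlap either, and the difference was -0.88 ± 0.36 (adjusted p = 0.223). At 18 months Col8a2 differed by -0.05.

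Among the metabolic and other members, Cox8b encodes a subunit of cytochrome c oxidase. It was at 0.03, -0.06, -0.05 and -0.4 in 4-month deficient brains, against 1.21, -0.24, 0.72 and 0.71 in 4-month wild-type brains. Wild-type arrays 1, 3 and 4 lay above all deficient brains and array 2 did not, and the difference was -0.72 ± 0.27 (adjusted p = 0.197). At 18 months it was 0.29 ± 0.27 higher in deficient brains (adjusted p = 0.875). Rdh5 is a retinol dehydrogenase, and Calml4 and Tmem72 are less studied genes of this epithelium. All 5 members of the role were lower in deficient brains at 4 months (median -0.71) and 3 of 5 at 18 months (median -0.07).

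Counted over the whole list, 26 of 34 members were lower in deficient than in wild-type brains at 18 months, where 48.8% of all genes were. The median difference of the members was -0.15, or 0.904-fold, against 0.006 over all genes. None of the 34 passed the adjusted threshold in limma, while 1.47% of all genes did. At an unadjusted p under 0.05 there was 1 member, Wfikkn2, and 9.91% of all genes. No member had all 4 deficient arrays below all 4 wild-type arrays, a pattern that 3.64% of all genes showed. The lean rested on single arrays. Without 18-month deficient array 2, 17 of 34 members were lower, with a median of 0.01, and without 18-month wild-type array 4, 18 of 34 were, with a median of -0.02.

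At 4 months, 32 of 34 members were lower in deficient brains, where 46.5% of all genes were, and the median difference was -0.69, or 0.619-fold, against 0.022 over all genes. Again none passed the adjusted threshold, while 1.53% of all genes did. At an unadjusted p under 0.05, 13 members were lower, against 8.45% of all genes. The groups did not overlap, with the deficient arrays lower, for 3 members, Aqp1, Cldn1 and Col8a2, and for 4.8% of all genes.

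The size of the 4-month difference moved with single brains. Without 4-month wild-type array 1, the median was -0.35, with 31 of 34 members lower and 2 at an unadjusted p under 0.05, against 13.4% of all genes in either direction. Without 4-month wild-type array 2, which was the lowest of its group, the median was -0.97 with 28 members at that threshold, against 13.7% of all genes. Without 4-month deficient array 4, the lowest of the deficient ones, it was -0.53 with 3 members, against 18.1%. With the choroid plexus level as a covariate, the median was 0 and 17 of 34 were lower. The level is the members' own median, so a value near 0 follows from how it is built. The members' changes share arrays and moved together, so the count of members is not a count of independent observations.

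**Figure D3:**
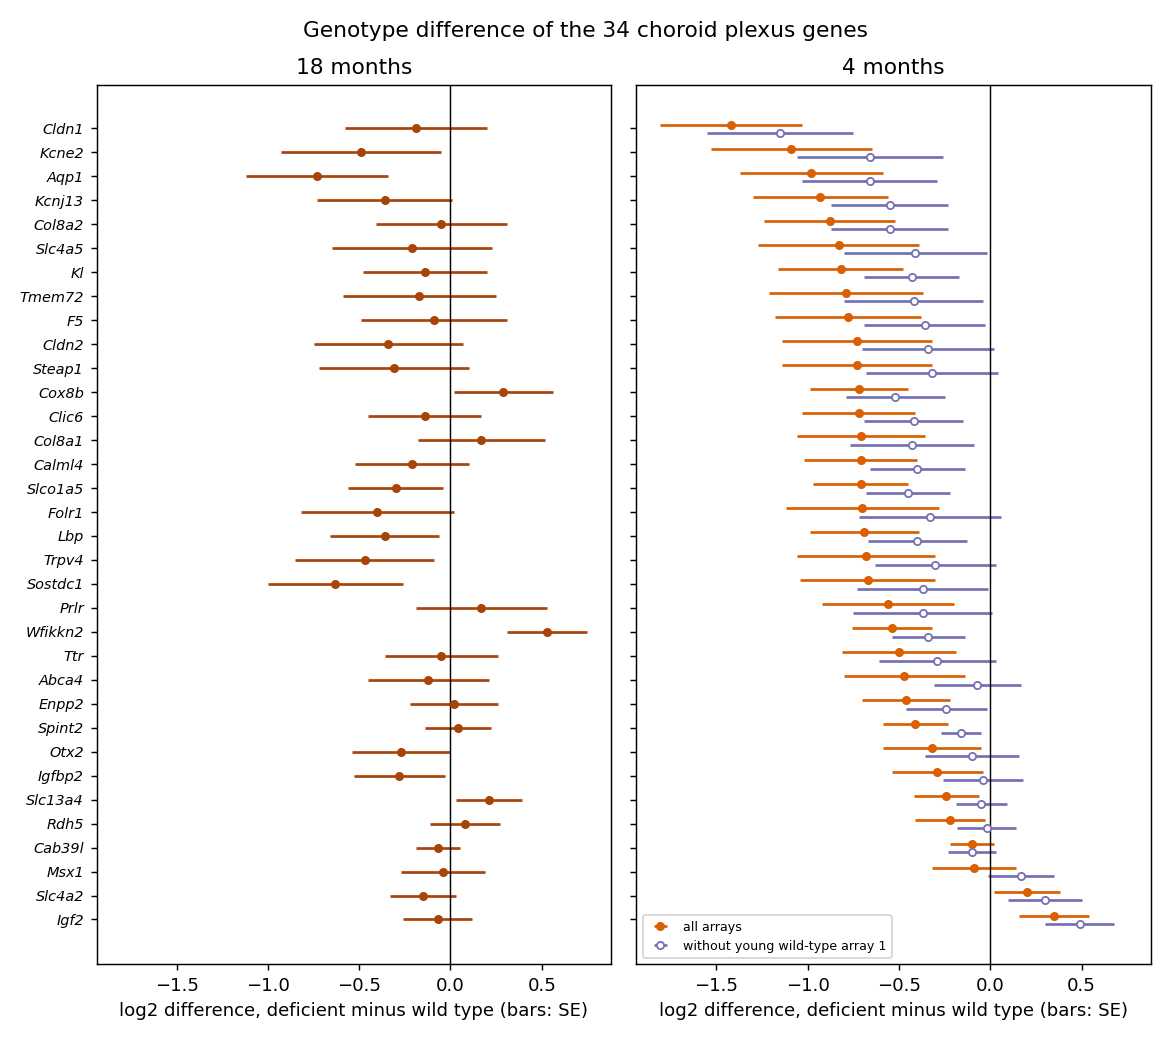
Log2 difference, deficient minus wild type, of each gene with its SE, at 18 months and at 4 months, with open points for the 4-month fit without wild-type array 1. At 4 months 32 of 34 filled points lie below 0 and the open points lie nearer to 0 for most genes, while at 18 months the median is -0.15.

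Whether the genotype difference changed with age was tested as an interaction, the difference at 18 months minus that at 4 months. It was positive for 32 of 34 members, with a median of 0.45, and 51.3% of all genes were below 0. None of the members was called, against 0.187% of all genes, and 3 had an unadjusted p under 0.05, against 10.6%. Without 4-month wild-type array 1 the median was 0.18, with 10 members below 0. Averaged over both ages, 32 members were lower in deficient brains, with a median of -0.43, where 45.1% of all genes were lower. None was called, against 3.19% of all genes, and 8 were lower at an unadjusted p under 0.05, against 7.15%.

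Age was compared within each genotype. In deficient brains 23 of 34 members were lower at 18 than at 4 months, with a median of -0.18, and 51.8% of all genes were lower. That direction rested on 18-month deficient array 2, without which 17 of 34 were lower, with a median of 0.01. None was called, while 2.39% of all genes were. Igf2 and Slc4a2 were lower at an unadjusted p under 0.05, against 10.8% of all genes. Igf2, Slc4a2 and Rdh5 had all older arrays below all younger ones, as did 10.1% of all genes, and Spint2, a membrane protease inhibitor, had all older arrays above, as did 7.8%. Igf2 was at -3.55, -3.46, -2.91 and -3.15 in 18-month deficient brains, against -2.66, -2.68, -2.68 and -2.82 in 4-month deficient brains, a difference of -0.55 ± 0.19 (adjusted p = 0.123).

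In wild-type brains all 34 members were lower at 18 than at 4 months, where 49.7% of all genes were, and the median was -0.62, or 0.652-fold. None was called, against 0.421% of all genes, and 9 were lower at an unadjusted p under 0.05, against 4.06%. In no member did the 2 ages stay apart, which 2.17% of all genes did with the older arrays lower and 1.32% with the older arrays higher. The smallest p was that of Wfikkn2, at -0.72 ± 0.22 (adjusted p = 0.304). This comparison uses the same 4-month wild-type arrays as the genotype comparison at 4 months. Without array 1 of that group the median was -0.3, with 32 members lower and 2 at an unadjusted p under 0.05, against 5.1% of all genes in either direction. Without its array 2 it was -0.85, with 28 members at that threshold, against 7.07%. With the choroid plexus level as a covariate it was 0.01, with 16 of 34 lower, which again follows from building the level from the members. Averaged over genotypes, 32 members were lower in the older brains, with a median of -0.36, where 52.5% of all genes were lower. None was called, against 1.61% of all genes, and 13 were lower at an unadjusted p under 0.05, against 7.72%.

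Other genes of the choroid plexus that are not among the 34 were listed separately under 37 names, and 34 were measured. Ecrg4 and Mia were each listed under a second name as well. Their median level per array correlated at 0.96 with the choroid plexus level over 16 arrays, and 9 of 34 did so at 0.8 or more, while 17 of 34 were highest on 4-month wild-type array 1. Among those 9 were the keratins Krt8 and Krt18, the homeodomain factor Lmx1a and the lactate transporter Slc16a8. Taken singly, the 34 genes had a median correlation of 0.48 with the level. The carriers Slc2a12 and Slc23a2 and the sodium pump subunit Atp1b1, which neurons also use, did not follow, with correlations of -0.22, 0.38 and -0.45. Nor did Htr2c at 0.07, Slc15a2 at 0.06, Slc4a10 at 0.01 and Slc5a3 at -0.05, among others.

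The list held single genes that passed the test, and they are not a result about the list. Over all genes, 1.47% were called for genotype at 18 months and 2.39% for age in deficient brains. The share was 3.19% for genotype averaged over ages and 1.61% for age averaged over genotypes. At 18 months the organic anion transporter Slc22a8 was lower in deficient brains, at -0.52 ± 0.08 (adjusted p = 0.00408), and the cation channel Trpm3 was higher, at 0.56 ± 0.13 (adjusted p = 0.0461). Slc22a8 was also lower in 18-month than in 4-month deficient brains, at -0.49 ± 0.08 (adjusted p = 0.00922). It correlated at 0.31 with the choroid plexus level. Its deviations were -0.32, -0.51, -0.37 and -0.27 in 18-month deficient brains, against 0.17, 0.23, 0.05 and 0.17 in 18-month wild-type brains. Those of Trpm3 were 0.21, 0.2, 0.26 and 0.25 in 18-month deficient brains, against -0.36, -0.52, -0.1 and -0.34 in 18-month wild-type brains. Neither gene's groups overlapped at 18 months. Averaged over ages, Slc22a8 and the claudin Cldn3 were lower in deficient brains, at -0.24 ± 0.06 and -0.82 ± 0.21 (adjusted p = 0.0364 and 0.0481). Averaged over genotypes, the monoamine transporter Slc29a4 was lower in the older brains, at -0.56 ± 0.12 (adjusted p = 0.0278). At 4 months and in wild-type brains across age, none of the list was called.

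The genes whose levels were most like the choroid plexus level, among 15253 genes outside the 34, were Ecrg4, Slc28a3, Krt18, Smim22, Rbm47, Krt8, Wdr86, Sytl3, Tuba1c and Tmem184a. Their correlations over 16 arrays ran from 0.96 to 0.92, and 48 genes reached 0.8. Ecrg4, listed in the files under a clone name, was at -0.69, -1.3, -0.18 and 0.25 relative to its mean in 18-month deficient brains, against -0.43, -0.66, -0.01 and 0.45 in 18-month wild-type brains. It was at 0.24, 0.01, 0.14 and -0.31 in 4-month deficient brains, against 1.55, -0.27, 0.56 and 0.64 in 4-month wild-type brains. Krt8 and Krt18 are the keratin pair of simple epithelia. Ecrg4, Krt18, Rbm47, Krt8 and Wdr86 were also in the list of other choroid plexus genes.

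Markers of tissues that border the ventricles or the brain were set beside the level. Of 25 ependymal names listed, 23 were measured. The correlation of their median with the choroid plexus level was 0.82 over 16 arrays, and 0.54 without the arrays of highest and lowest level. By group the median ran from -0.38 to 0.02 in 18-month deficient and -0.16 to 0.4 in 18-month wild-type brains, and from -0.22 to 0 in 4-month deficient and -0.04 to 0.63 in 4-month wild-type brains. The ciliary factor Foxj1 was above background on all 16 arrays. Of the ependymal list, Ccdc153 alone was called, lower in deficient brains at both ages. Of all genes, 1.47% were called at 18 months and 1.53% at 4 months.

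For the pituitary, 6 of 13 genes were measured, and their median correlated with the choroid plexus level at 0.82, and at 0.64 without those 2 arrays. It ran from -2.48 to 1.33 in 18-month deficient and from -2.47 to -0.45 in 18-month wild-type brains. At 4 months it ran from -0.1 to 3.24 in deficient and from -0.48 to 5.26 in wild-type brains, and the 5.26 was 4-month wild-type array 1. Prl, the pituitary hormone prolactin, was at 7.64 there, and was not well above background on 18-month deficient array 1. It was above background on 14 of 16 arrays, and growth hormone, Gh, and the kept probe of Cga on 11 each. Gh and Cga passed the filter on dim probes only through 4-month brains. On 18-month deficient arrays 1 and 2 they were at background, Gh at -8.22 and -8.2 and Cga at -7.94 and -7.92. The list's ranges and correlations thus rest partly on background values and on genes kept where they were high. The part of carried-over tissue in the choroid plexus results was not tested.

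**Figure D4:**
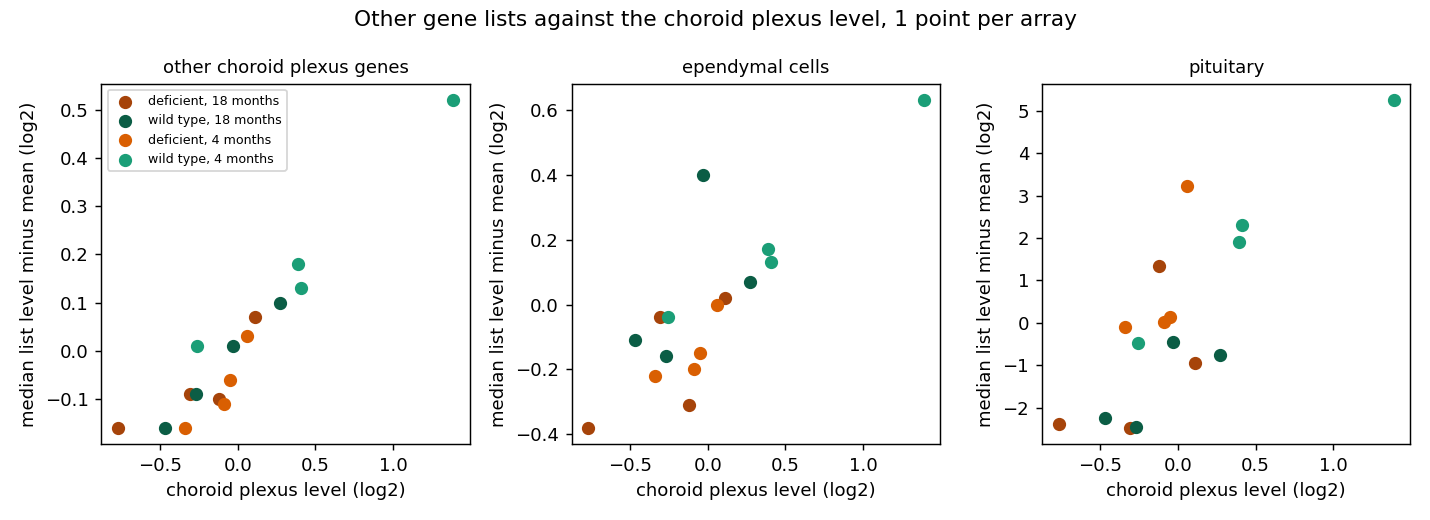
Median level of 3 other gene lists, each gene relative to its mean over 16 arrays, against the choroid plexus level of the same array, 1 point per array. The other choroid plexus genes lie close to a line (correlation 0.96), and 4-month wild-type array 1 is the upper right point in each panel, at 5.26 for the pituitary list.

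The remaining lists moved less with the level. The correlation was 0.24 for 16 of 16 meningeal genes and -0.04 for 5 of 8 pineal genes. It was 0.2 for 6 of 8 genes of the retinal pigment epithelium. For 6 genes of red blood cells, of 10 names listed, it was 0.41, and for 11 of 11 endothelial genes 0.32. It was -0.38 for neurons, 0.31 for astrocytes, 0.41 for oligodendrocytes and -0.03 for the 13 Hox genes of hindbrain and spinal cord. The Hox genes differed between groups in their own way, from -0.71 to 0.9 in 18-month deficient and from -3.75 to -0.88 in 18-month wild-type brains. They ran from 0.99 to 2.93 in 4-month deficient and from -0.52 to 1.47 in 4-month wild-type brains. At 18 months 6 of the 13 Hox genes were called higher in deficient brains, where 1.47% of all genes were called. So were the meningeal Gjb2 and the oligodendrocyte gene Mobp. Of the 7 oligodendrocyte genes 5 were lower there (median -0.11), and of the 16 meningeal genes 4 were (median 0.1). At 4 months the pineal Drd4 and the endothelial Plvap were called higher, where 1.53% of all genes were called. In their lists 3 of 5 pineal genes (median -0.11) and 6 of 11 endothelial genes (median -0.01) were lower. Rpe65, of the retinal pigment epithelium, was called lower at both ages. Genes of these lists were called across age as well.

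The genes of red blood cells also differed between groups. Their median ran from -2.57 to -0.16 in 18-month deficient and from 0.08 to 0.72 in 18-month wild-type brains, with no overlap. The beta globins Hbb-b1 and Hbb-b2 were lower in deficient brains at 18 months, at -2.09 ± 0.44 and -1.99 ± 0.45 (adjusted p = 0.0268 and 0.0406). So was Alas2, which starts the making of heme in erythroid cells, at -2.41 ± 0.53 (adjusted p = 0.0344), where 1.47% of all genes were called. At 4 months the median ran from 0 to 2.06 in deficient and from 0.3 to 0.84 in wild-type brains. The part of blood in the choroid plexus results was not tested.

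Arrays also differed in how their levels moved with base composition. On 4-month deficient array 1 the deviation of a probe from its mean rose with the share of G and C in the probe, with a rank correlation of 0.66 over 29446 probes and 0.58 over the 47 member probes above background throughout. This was the strongest of the 16 arrays. The rank correlation over all probes was also 0.51 on 18-month wild-type array 2 and 0.53 on 4-month wild-type array 4, with 0.44 and 0.41 over the member probes. It was -0.53 on 4-month wild-type array 2, with -0.32 over the member probes, and between -0.33 and -0.07 on the other 12. On 4-month deficient array 1, 9 of 9 member probes with at least 50% G and C lay above their mean (median 0.5). So did 9 of 22 with 40% to under 50% (median -0.09) and 4 of 16 with under 40% (median -0.34). On 4-month wild-type array 1 the rank correlation was -0.09 over all probes and 0.07 over the member probes, and the medians of the same classes were 1.62, 1.32 and 1.34.

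For 4 member probes, picked to show the contrast, the first 30 bases are given. G and C are in capitals, and the order is that of their share in the 60-base probe.
Trpv4 (mm9, chr5:115072208-115072267, minus strand): GaCCtGCCaCaGatCtGaCCtGCtGCaGCC
Igfbp2 (mm9, chr1:72898677-72898736, plus strand): CatCtCttCtaCaaCGaGCaGCaGGaGaCt
Igfbp2 (mm9, chr1:72898813-72898872, plus strand): aGGaGttCCCaGttttGaCaCatGtattta
Col8a1 (mm9, chr16:57624471-57624530, minus strand): CaGttGtCCtCaaatattttaCaGaaaCaa
The coordinates are those of the whole probe. The probes held 55%, 55%, 40% and 35% G and C and deviated on 4-month deficient array 1 by 0.83, 0.63, -0.2 and -1.11. Igfbp2, which encodes a carrier of insulin-like growth factors, thus gave opposite signs from 2 probes in the same transcript. Cldn1, whose probe has 35% G and C, was lowest of all 16 arrays on 4-month deficient array 1. The part of base composition in the members' differences was not tested. Without 4-month deficient array 1 and 4-month wild-type array 1, the 4-month median difference was -0.32 and the difference of Cldn1 was -0.7 (adjusted p = 0.252).

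**Figure D5:**
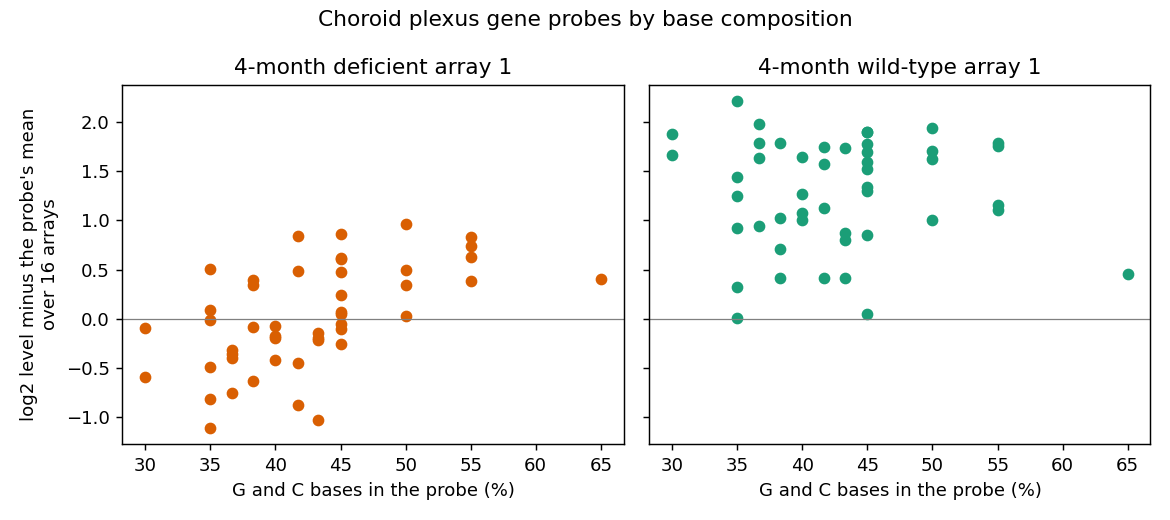
Log2 level of each of the 47 member probes minus its mean over 16 arrays, against the percentage of G and C bases in the probe, for 4-month deficient array 1 and 4-month wild-type array 1. On the deficient array the points rise with G and C (rank correlation 0.58), and on the wild-type array they lie above 0 at every G and C content.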

How the data were processed

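Per the file headers, Agilent Feature Extraction 10.7.3.1 read the 1-colour arrays, and the authors deposited spot intensities with background-subtracted processed signal. The deposited value table holds log2 values, and its scale and steps are not stated. It ranked probes as the raw median signal did (rank correlation 0.99997 or more), its medians lay between 6.606 and 6.622, and it served as an alternative. The submitters' processing notes name limma. The labels hold each sample's age in the strain field and its strain in the age field.

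Each array held 59305 non-control spots, 58.4% to 66.1% of them well above background, with a processed signal at the 75th percentile of 626 to 1348. Outlier spots were left out, spots of a probe averaged, and log2 processed signal taken relative to the array's 75th percentile. Probes well above background on all 4 arrays of a group were kept, and the brightest stood for its gene. With a mean for each of the 4 groups, 23032 genes were fitted in limma 3.58.1 (R 4.3.3, with version 1.17.8 of data.table), for 7 contrasts, with Benjamini-Hochberg adjustment over all genes and a threshold of 0.05. The fit was tested on simulated data. The number of arrays limits the precision, and the p-values reflect only the spread of these arrays, called biological replicates in the series' design.

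The members and lists were chosen with earlier results of these data known. Values per array are given for Ttr, Otx2, each member called, and the 4 members with the smallest p in each genotype comparison. Folr1, Igf2, Slc4a2 and Col8a2, and the other choroid plexus genes named without a call, were chosen after their values were seen. The probes whose bases are shown were picked to illustrate base composition. Ecrg4 and Smim22 were named through RefSeq's gene names. Same-numbered arrays deviated together little more than others did, and the numbers were not taken as pairs. Over 24 same-numbered pairs the median correlation was 0.04, with 8 above 0.1. Over 72 differently numbered pairs it was 0, with 15 above 0.1. Alternatives were normexp (offset 50), quantile normalization, the value table, no filter, the mean of probes, array weights, a replicate block, the choroid plexus level as a covariate and each array left out.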

Additional observations from a re-analysis of the deposited data

Results flagged for a closer look

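In 188 groups of 4 arrays (the members and the lists in each group), 8 held 1 array far from the other 3 by Dixon's test at a critical value of 0.829, and chance alone flags about 1 in 20 groups. Otx2 was at 0.31 on 18-month deficient array 2, with the other 3 arrays between 1.18 and 1.23. In the 4-month deficient group, array 1 was far off for Igfbp2 at 3.03 (others 2.24 to 2.32), for Cldn1 at -7.18 (others -5.41 to -5.31) and for Col8a1 at -5 (others -4 to -3.82). In the same group array 4 was low for Igf2 at -2.82 (others -2.68 to -2.66) and for Lbp, a lipopolysaccharide-binding protein, at -1.82 (others -1.38 to -1.31). Spint2 was at 1.71 on 4-month wild-type array 1 (others 0.66 to 0.81). The pituitary list was at 3.24 on 4-month deficient array 3 (others -0.1 to 0.13).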

How the results depend on the processing

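Of 182 counts of called members under alternatives, 173 stayed within 1.5 times the count given and 9 moved. The count given was 0 in each of the 7 contrasts, so those that stayed were again 0. Outside the covariate fit, each median moved by less than 0.43, the pooled SD of the choroid plexus level within groups. Within that limit, the 4-month genotype median still went from -0.69 to -0.35 without 4-month wild-type array 1. With the choroid plexus level as covariate, the median was 0.01 for genotype at 18 months and 0 at 4 months. For age it was 0 in deficient and 0.01 in wild-type brains. The members lower numbered 16, 17, 17 and 16 of 34, in that order. The level is the members' own median, so medians near 0 follow from how it is built. With limma's array weights, members called numbered 5 for genotype at 4 months (Sostdc1, Calml4, Cldn1, Slco1a5, Cox8b), 1 for age in wild type (Wfikkn2), 2 for age in deficient brains (Igf2, Slc4a2), 1 for the interaction (Wfikkn2), 2 for mean genotype (Aqp1, Sostdc1) and 5 for mean age (Aqp1, Igf2, Kcne2, Slc4a2, Rdh5). The weights ran from 0.1 (4-month deficient array 1) to 9.73 (4-month wild-type array 3). The share of all 23032 genes called was then 17.7% for genotype at 4 months (4069 genes, against 353), 3.36% for age in wild type, 13.3% for age in deficient brains, 3.56% for the interaction, 10.5% for mean genotype and 10.9% for mean age. In that fit Cldn1 was at -0.68 (adjusted p = 0.0277), Slco1a5 at -0.64 (0.0305) and Cox8b at -0.84 (0.013). In the covariate fit, 1 member (Wfikkn2) was called at 18 months, and Ttr at 4 months turned to 0.08 and Otx2 to 0.13. With the mean of probes, Otx2 at 4 months turned to 0.21. Leaving out 1 array gave 0 to 1 called member for age in deficient brains (Igf2) and 0 to 3 for mean age (Igf2, Slc4a2, Rdh5), the highest counts coming without 4-month wild-type array 2, and 0 in the other 5 contrasts. The 4-month median ran from -0.97 to -0.35. The 18-month median ran from -0.28 to 0.01, the last without 18-month deficient array 2. The cause of these changes was not tested. The fit with the replicate number as a block called 0 members in each contrast, as without it, with a 4-month median of -0.69, and 197 genes overall at 4 months against 353. Of 16 arrays, 4 matched best with an array of their own number. The covariate fit called 116 genes at 4 months. Without the filter, 142 of 34821 genes were called. Leaving out 4-month wild-type array 1 with 4-month deficient array 1 or with 18-month deficient array 2 was chosen after seeing the data, and called 0 members in each contrast.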
